A study of Mus musculus with 114 samples.

Results

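The 10 genes described here encode the core of de novo lipogenesis: the enzymes Acly, Acaca, Acacb, Fasn, Scd1, Scd2, Elovl6 and Me1 and the transcription factors Srebf1 and Mlxipl. They were taken by symbol from a table of 29132 genes, and all 10 had reads in every mouse and passed the filter on low values, so that all were among the 10343 genes tested. Adipocytes of the perigonadal depot came from male C57BL/6J mice started at 6 weeks of age on control chow (CD) or on high fat food (HFD), and their mRNA was sequenced. Each diet had 6 mice after 8 weeks and 6 after 20 weeks, and after 34 weeks there were 8 on CD and 6 on HFD, which makes 38 mice, each sequenced as 3 technical replicates that the authors merged. All mice were of this strain and were fasted before harvest. The adipocytes were the floating fraction of a collagenase digest, which can carry other cells along. The methods name more than one control chow, and no source used here says which mouse ate which, so that a change of chow and a change of age cannot be told apart among CD mice. The same limit holds where HFD is set against CD and that difference is compared between times, since CD mice are the reference. Values are CPM, the reads on a gene scaled so that all genes of a mouse sum to 1000000.

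De novo lipogenesis builds fatty acids from carbohydrate. Citrate that leaves the mitochondria is split by ATP citrate lyase (Acly) into acetyl-CoA, acetyl-CoA carboxylase (Acaca, Acacb) makes malonyl-CoA from it, and fatty acid synthase (Fasn) joins these units into palmitate with NADPH that malic enzyme (Me1) helps to supply. Elovl6 lengthens palmitate to stearate, and the stearoyl-CoA desaturases (Scd1, Scd2) put in a double bond. Transcription of the pathway is driven by SREBP-1 (Srebf1), which answers to insulin, and by ChREBP (Mlxipl), which answers to glucose metabolites and has 2 promoters in adipocytes. In white fat the pathway is known to be low on a high fat diet and in obesity.

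The upstream sequences of Fasn, Acly and Mlxipl are given because Acly moved with Fasn between mice, whereas Mlxipl, a gene with 2 starts, was not shown to do so. Me1 also had 2 starts and Srebf1 had 3. RefSeq entries on GRCm38.p6 were found for 8 of the 10 genes. Each run below holds the 250 bases before a start, none of which lies in a GENCODE exon, and capitals mark the CCAAT box, the GC box with letters GGGCGG, the E-box with letters CACGTG or the sterol element with letters TCACNCCAC on either strand, with overlapping matches merged. The Fasn window is chr11:120824548-120824797 (minus strand), the Acly window is chr11:100528001-100528250 (minus strand), and the Mlxipl windows are chr5:135089640-135089889 and, 17001 bases downstream, chr5:135106641-135106890 (plus strand).
Fasn: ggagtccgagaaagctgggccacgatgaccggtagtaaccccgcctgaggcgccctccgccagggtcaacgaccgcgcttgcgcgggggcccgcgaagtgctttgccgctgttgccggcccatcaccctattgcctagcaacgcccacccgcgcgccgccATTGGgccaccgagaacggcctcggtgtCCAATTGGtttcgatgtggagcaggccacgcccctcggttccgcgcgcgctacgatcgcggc
Acly: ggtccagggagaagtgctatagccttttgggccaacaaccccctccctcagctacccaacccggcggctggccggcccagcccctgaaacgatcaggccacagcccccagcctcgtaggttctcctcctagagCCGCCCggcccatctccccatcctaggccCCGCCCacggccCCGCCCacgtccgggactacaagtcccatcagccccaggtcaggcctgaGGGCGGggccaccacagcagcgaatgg
Mlxipl upstream start: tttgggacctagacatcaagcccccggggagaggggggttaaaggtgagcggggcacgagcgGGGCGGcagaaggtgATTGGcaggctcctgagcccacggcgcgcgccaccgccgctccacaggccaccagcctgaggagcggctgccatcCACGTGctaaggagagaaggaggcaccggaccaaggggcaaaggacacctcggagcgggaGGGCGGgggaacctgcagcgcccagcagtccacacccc
Mlxipl downstream start: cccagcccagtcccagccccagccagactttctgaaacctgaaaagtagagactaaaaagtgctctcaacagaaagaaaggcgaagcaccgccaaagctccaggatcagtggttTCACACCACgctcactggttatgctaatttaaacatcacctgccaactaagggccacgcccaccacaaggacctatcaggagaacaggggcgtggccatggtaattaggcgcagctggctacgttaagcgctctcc
The Fasn window held 3 CCAAT matches and the Acly window held 4 GC boxes. The upstream Mlxipl window held 1 E-box, 1 CCAAT and 2 GC boxes, and the downstream one held 1 sterol element. Of 32851 windows of the same length, 33.8% held CCAAT, 32.7% a GC box, 6.02% the E-box and 1.05% the sterol element. A match is a description of the letters only. Reads were counted per gene, so transcripts from different starts of Mlxipl, Me1 or Srebf1 were not separated.

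After 8 and 20 weeks of HFD the number of genes called in either direction, 4 and 6 of 10, was near the share of all genes tested. At 8 weeks the calls went in both directions. Of the 10 genes, Scd2 was higher and Acaca, Acacb and Mlxipl were lower in HFD adipocytes, and 6 did not pass the test, where 29.8% of all genes tested were called higher and 15.1% lower (44.9% in all). After 20 weeks Scd2 was still higher, and Acaca, Acacb, Fasn, Srebf1 and Mlxipl were lower, where 38.3% of all genes were called higher and 18.7% lower (57.0% in all). By direction, the 5 lower calls of 10 were thus above the share of all genes and the 1 higher call was below it. After 34 weeks all 10 were lower, where 15.7% of all genes were called lower and 27.5% higher (43.2% in all). The median log2 fold change of the 10 genes was 0.20, -0.79 and -1.78 at 8, 20 and 34 weeks, and that of all genes tested was 0.11, 0.14 and 0.07. Calls are limma's at a Benjamini-Hochberg adjusted p under 0.05 over all genes tested, log2 fold changes are HFD against CD on the scale of log2(CPM + 1), and ± after them is the standard error. The 3 diet comparisons share no mice. In these comparisons a gene said to rise or fall is higher or lower in HFD than in CD mice of the same time, which is not a change over time.

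**Figure D1:**
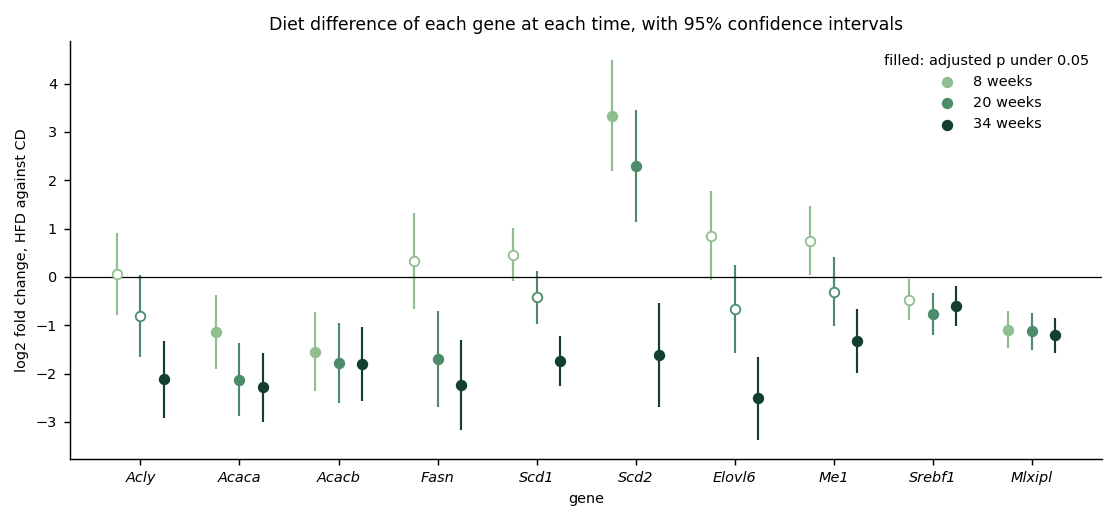
The log2 fold change of HFD against CD on the log2(CPM + 1) scale (y axis) is plotted for each of the 10 genes (x axis) at 8, 20 and 34 weeks, with limma's 95% confidence intervals as bars and filled points where the adjusted p was under 0.05. All 10 points at 34 weeks are filled and below 0, and Scd2 is the gene with filled points above 0, at 8 and 20 weeks.

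In bulk RNA, fewer adipocytes in the fraction and less RNA per adipocyte cannot be told apart, and the markers of other cells moved with the diet. All 8 adipocyte markers on the list (among them Adipoq and Plin1) were detected in every group, and 1, 7 and 7 of them were lower in HFD at 8, 20 and 34 weeks, with median log2 fold changes of -0.35, -0.72 and -0.60. Their summed CPM ran from 36477 to 45282 in CD and 30009 to 43663 in HFD mice at 8 weeks, from 31977 to 44634 and 24232 to 36186 at 20 weeks, and from 28319 to 47507 and 15829 to 37458 at 34 weeks. Of the 10 macrophage markers, 9 were in the table and tested, and 6, 7 and 9 of them were higher in HFD at 8, 20 and 34 weeks. Their summed CPM ran from 333 to 1653 in CD and 996 to 2921 in HFD mice at 8 weeks, from 929 to 3095 and 4134 to 8557 at 20 weeks, and from 1044 to 11624 and 4804 to 14130.5 at 34 weeks. Of 7 tested progenitor and fibroblast markers, 6, 7 and 3 were higher in HFD at 8, 20 and 34 weeks, and of 5 endothelial markers 5, 4 and 5. Lymphocyte and epididymis markers summed to at most 4.79 and 8.09 CPM in any mouse, and Cd3g was at 0 in all 8 week CD and Cd3e in all 8 week HFD mice. The macrophage and adipocyte markers were used in 2 alternative fits. One had the macrophage marker mean of each mouse as a covariate, and the other took values relative to the adipocyte marker mean. The calls that either fit added or lost among the 10 genes stand beside each result. Over all genes tested, the macrophage covariate gave 3816, 2918 and 737 calls at 8, 20 and 34 weeks. Without it there were 4648, 5894 and 4468, so a lost call, above all at 34 weeks, is not particular to these genes. Progenitor, fibroblast and endothelial markers were in neither fit, so the part of those cells was not examined. At 20 weeks the macrophage marker mean did not overlap between the diets (5.15 to 7.89 in CD, 8.16 to 9.13 in HFD mice). With that covariate, diet and macrophages cannot be told apart at that time. Relative to the adipocyte markers most genes shifted up, with medians over all genes of 0.45, 0.84 and 0.66 at the 3 times.

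Acly, which makes cytosolic acetyl-CoA (chr11:100476353-100528000, GRCm38), did not differ at 8 weeks beyond the spread, with CPM from 309 (median 409) to 583 in CD and from 275 (median 450.4) to 593 in HFD mice. At 20 weeks the CD mice ran from 323 (median 416) to 890.2 and the HFD mice from 223 (median 286) to 321. Every HFD mouse was then below every CD mouse, yet the log2 fold change of -0.81 ± 0.42 had an adjusted p of 0.099. It passed when the 20 week mice were fitted alone (adjusted p = 0.0145) and in edgeR (adjusted p = 0.0262). In the marker fits it was near 0 and not called. It was -0.11 relative to the adipocyte markers (adjusted p = 0.810) and -0.04 with the macrophage covariate (adjusted p = 0.960). At 34 weeks CD mice spanned 337 (median 824) to 4612 and HFD mice 168 (median 234) to 359. Acly fell by 2.12 ± 0.39 on the log2 scale (adjusted p = 0.000142), with 5 of 6 HFD mice below every CD mouse.

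Both carboxylase genes were lower on HFD at each time. Acaca, which makes the cytosolic malonyl-CoA that Fasn uses (chr11:84129672-84401651), ran from 607 (median 799) to 1015 CPM in CD and from 253 (median 344) to 529 in HFD mice at 8 weeks. At 20 weeks the ranges were 617 (median 955) to 1262 in CD and 173 (median 213) to 269.7 in HFD mice. The diets did not overlap at either time. The log2 fold changes were -1.14 ± 0.37 (adjusted p = 0.0139) and -2.13 ± 0.37 (adjusted p = 1.51e-05). At 34 weeks the CD mice spread from 196 (median 672) to 2208 CPM and the HFD mice from 90.0 (median 150.2) to 247, with a log2 fold change of -2.28 ± 0.35 (adjusted p = 1.93e-05). With the macrophage covariate the 8 week difference of Acaca was -0.47 and lost its call (adjusted p = 0.254), and those at 20 and 34 weeks kept it (adjusted p = 0.0373 and 0.00498).

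Acacb, the mitochondrial carboxylase whose malonyl-CoA restrains fatty acid oxidation (chr5:114146535-114250761), had 259 (median 457) to 500.3 CPM in CD and 65.0 (median 125) to 425 in HFD mice at 8 weeks. At 20 weeks it had 219 (median 409.7) to 602 in CD and 72.0 (median 99.0) to 328 in HFD mice. In each HFD group 5 of 6 mice lay below every CD mouse and the other mouse lay among them. By 34 weeks the CD mice had come down to 45.7 (median 130.1) to 301 CPM and the HFD mice to 26.2 (median 40.6) to 56.1. The log2 fold changes were -1.54 ± 0.41, -1.78 ± 0.41 and -1.81 ± 0.38 at the 3 times (adjusted p = 0.0028, 0.000386 and 0.000457). With the macrophage covariate they were -0.90, -0.70 and -0.998, and none was called (adjusted p = 0.0544, 0.224 and 0.0907).

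Fasn (chr11:120805846-120824547) was not called at 8 weeks, with 1662 (median 2371) to 4139 CPM in CD and 1802 (median 3752) to 4268 in HFD mice and a 95% confidence interval of -0.67 to 1.33 for the log2 fold change. At 20 weeks CD mice had 2624 (median 4608) to 10103 CPM and HFD mice 676 (median 1723) to 2071. The groups did not overlap, and Fasn fell by 1.70 ± 0.49 on the log2 scale (adjusted p = 0.00389). At 34 weeks CD mice ran from 975 (median 5280.1) to 18022 CPM, and HFD mice from 668 (median 1232) to 2152. The log2 fold change was -2.24 ± 0.46 (adjusted p = 0.000378), and all 6 HFD mice were below the CD mean although 2 were below every CD mouse. With the macrophage covariate the differences were -0.47 at 20 weeks (adjusted p = 0.545) and -1.32 at 34 weeks (adjusted p = 0.0737), neither of them called.

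Me1, the cytosolic malic enzyme (chr9:86581371-86695953), was not called before 34 weeks. At 8 weeks it had 324 (median 387) to 463 CPM in CD and 424 (median 740.1) to 838 in HFD mice, and 5 of 6 HFD mice were above every CD mouse. The log2 fold change of 0.75 ± 0.35 had an adjusted p of 0.0792 in the fit of all mice, of 0.00382 when the 8 week mice were fitted alone, and passed without HFD mouse 2. Me1 was also called higher at 8 weeks relative to the adipocyte markers (1.09, adjusted p = 0.00811), with the macrophage covariate (1.27, adjusted p = 0.0033) and with array weights. At 20 weeks the diets overlapped, with 377 (median 491) to 881 CPM in CD and 327 (median 453) to 515 in HFD mice (log2 fold change -0.30 ± 0.35, adjusted p = 0.474). At 34 weeks CD mice had 392 (median 1019) to 3824 and HFD mice 267 (median 472) to 729.8 CPM, and Me1 fell by 1.33 ± 0.33 on the log2 scale (adjusted p = 0.00181). That difference was -0.68 with the macrophage covariate and was then not called (adjusted p = 0.207).

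Elovl6 (chr3:129532355-129638495) had 10.2 (median 17.6) to 26.7 CPM in CD and 17.0 (median 36.6) to 46.4 in HFD mice at 8 weeks, and 18.8 (median 30.4) to 77.7 in CD and 9.998 (median 22.0) to 27.8 in HFD mice at 20 weeks. Neither difference was called in the fit of all mice, at 0.86 ± 0.45 (adjusted p = 0.118) and -0.67 ± 0.45 (adjusted p = 0.205). At 8 weeks Elovl6 was called higher when those mice were fitted alone (adjusted p = 0.0209), relative to the adipocyte markers (1.19, adjusted p = 0.0308), with the macrophage covariate (1.31, adjusted p = 0.0258) and with array weights. At 34 weeks CD mice ran from 17.5 (median 104) to 292 CPM and HFD mice from 7.28 (median 14.4) to 26.2. The fall of 2.51 ± 0.42 on the log2 scale (adjusted p = 5.22e-05) was the largest of the 10 genes at that time.

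The 2 desaturase genes, neighbours on chromosome 19, moved apart. Scd1 (chr19:44394455-44407879) was by far the more abundant, with 28460.0 (median 33822) to 48355 CPM in CD and 34165 (median 50462) to 59654 in HFD mice at 8 weeks and 17985 (median 30433) to 42486 against 19423 (median 22449) to 27326 at 20 weeks. Neither difference was called, at 0.46 ± 0.27 (adjusted p = 0.164) and -0.42 ± 0.27 (adjusted p = 0.185). At 8 weeks Scd1 was called higher relative to the adipocyte markers (0.80, adjusted p = 0.00228) and with the macrophage covariate (0.97, adjusted p = 0.000986), and at 20 weeks it was called lower in edgeR (adjusted p = 0.0371). The sign at 20 weeks turned without a call in both marker fits. It was 0.28 relative to the adipocyte markers (adjusted p = 0.181) and 0.43 with the macrophage covariate (adjusted p = 0.207). At 34 weeks CD mice had 22735 (median 49548) to 81778 CPM and HFD mice 11582 (median 12775) to 32064, and 5 of 6 HFD mice were below every CD mouse. Scd1 fell by 1.75 ± 0.25 on the log2 scale (adjusted p = 1.06e-05). Without the filter on low values the same estimate had an adjusted p of 0.146.

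Scd2 (chr19:44293674-44306864), the desaturase isoenzyme best known from brain, had 27.1 (median 63.3) to 159 CPM in 8 week CD and 167 (median 760.0) to 1262 in 8 week HFD mice. Every HFD mouse was above every CD mouse, and the log2 fold change was 3.34 ± 0.57 (adjusted p = 3.50e-05). At 20 weeks CD mice had 15.2 (median 59.9) to 167 CPM and HFD mice 79.9 (median 329.7) to 441, and 5 of 6 HFD mice lay above every CD mouse, at 2.30 ± 0.57 on the log2 scale (adjusted p = 0.000912). At 34 weeks the direction was opposite, with 144 (median 905) to 1736 CPM in CD and 169.8 (median 234) to 586 in HFD mice, and the difference was -1.62 ± 0.53 on the log2 scale (adjusted p = 0.0141). That difference was not called relative to the adipocyte markers (-1.04, adjusted p = 0.0902) or with the macrophage covariate (-1.46, adjusted p = 0.151), whereas the calls at 8 and 20 weeks held in both. Mouse Scd genes are close relatives. Reads that overlapped a single gene were counted, and whether reads of Scd1 were placed on Scd2 was not examined.

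**Figure D2:**
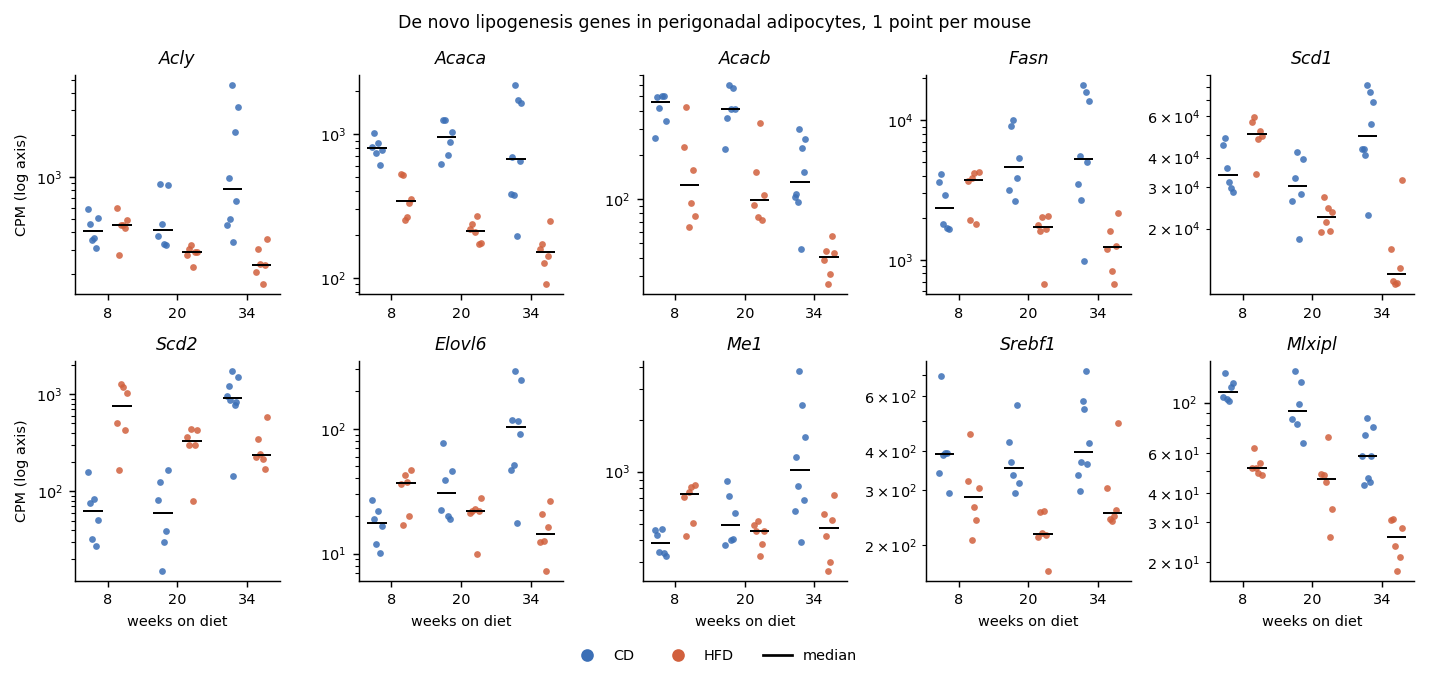
CPM on a log axis (y axis) is plotted for each of the 10 genes by weeks on diet (x axis), with 1 point per mouse, CD mice in blue, HFD mice in orange and the group median as a black line. Scd2 in CD mice sits between 15.2 and 167 CPM at 8 and 20 weeks and between 144 and 1736 CPM at 34 weeks, and the widest spread of Fasn, from 975 to 18022 CPM, is in the 34 week CD mice.

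The share of Scd2 among the desaturases was set against Scd1 within each mouse. Scd2 had a median of 0.167% of the CPM of Scd1 in CD and 1.48% in HFD mice at 8 weeks, and 0.236% and 1.67% at 20 weeks. At 34 weeks the medians were 2.11% in CD and 1.83% in HFD mice. The log2 ratio was higher in HFD by 2.88 at 8 weeks and by 2.72 at 20 weeks, with 5 of 6 HFD mice above every CD mouse at both times (two-sided exact permutation tests, adjusted p = 0.0195 for both over 6 tests). At 34 weeks it differed by 0.13 (exact permutation test, adjusted p = 0.714). The ratio of Acacb to Acaca differed by -0.41, 0.35 and 0.48 on the log2 scale at the 3 times, with none called by the same exact permutation test (adjusted p = 0.364, 0.382 and 0.135). Both diets had a lower median of that ratio at 34 weeks (19.5% in CD, 24.99% in HFD) than at 8 weeks (53.0% and 39.3%), a comparison over time that was not tested.

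**Figure D3:**
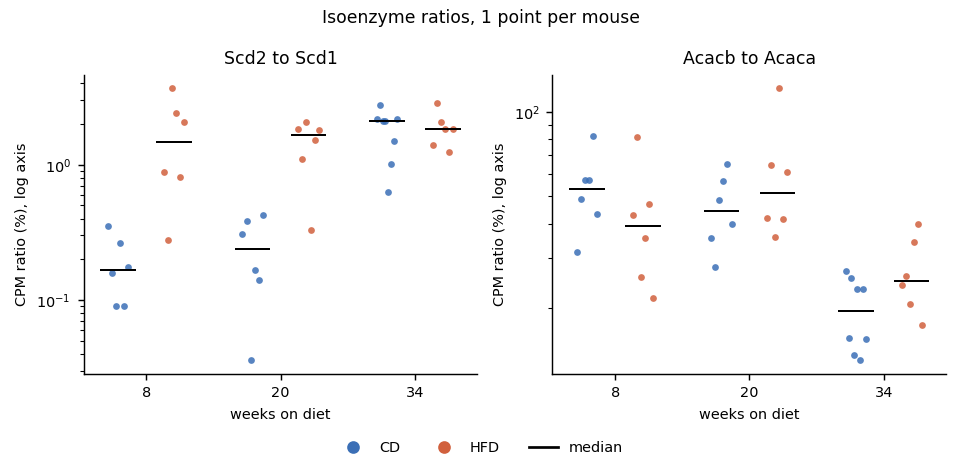
The CPM of Scd2 as a percentage of that of Scd1 (left) and of Acacb as a percentage of Acaca (right), on log axes, is plotted by weeks on diet with 1 point per mouse and the median as a black line. The median Scd2 share is 0.167% and 0.236% in CD mice at 8 and 20 weeks and between 1.48% and 2.11% in the other 4 groups.

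Of the transcription factors of the pathway, Mlxipl was lower on HFD at all 3 times and Srebf1 at 20 and 34 weeks. Mlxipl (chr5:135089890-135138382) had 102 (median 111) to 135 CPM in CD and 48.2 (median 51.7) to 63.1 in HFD mice at 8 weeks, 66.3 (median 91.9) to 138 and 25.7 (median 46.5) to 70.6 at 20 weeks, and 43.7 (median 58.2) to 85.4 and 18.3 (median 25.9) to 30.8 at 34 weeks. The diets did not overlap at 8 and 34 weeks, and 1 HFD mouse reached into the CD range at 20 weeks. The log2 fold changes were -1.09 ± 0.19, -1.13 ± 0.19 and -1.21 ± 0.18 (adjusted p = 3.78e-05, 6.76e-06 and 1.06e-05). They remained called with the macrophage covariate (-0.93, -0.86 and -1.01) and relative to the adipocyte markers (-0.75, -0.43 and -0.63), which makes Mlxipl the single one of the 10 genes with a call at all 3 times in both of these fits.

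Srebf1 (chr11:60199089-60222581) had 295 (median 390.3) to 694 CPM in CD and 208 (median 285) to 454 in HFD mice at 8 weeks. It had 294 (median 353) to 561 against 166 (median 217) to 257 at 20 weeks and 299 (median 397) to 722 against 239 (median 253) to 492 at 34 weeks. The diets overlapped at 8 and 34 weeks and did not overlap at 20 weeks. The log2 fold changes were -0.47 ± 0.21 (adjusted p = 0.0722), -0.78 ± 0.21 (adjusted p = 0.00248) and -0.60 ± 0.20 (adjusted p = 0.0153). Relative to the adipocyte markers they were -0.13, -0.08 and -0.02, and none was called (adjusted p = 0.589, 0.724 and 0.93), nor was any with the macrophage covariate (adjusted p = 0.383, 0.224 and 0.385). At 8 weeks Srebf1 was called without CD mouse 6 or HFD mouse 2 and in edgeR (adjusted p = 0.0415), and at 34 weeks it was not called when those mice were fitted alone (adjusted p = 0.0567) or with array weights.

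Of the 10 genes, Scd2 was alone in having all 8 week HFD mice above all CD mice, and Acaca and Mlxipl had them all below, where 15.7% of all genes had all HFD mice above and 7.14% all below (22.8% in all). At 20 weeks Acly, Acaca, Fasn and Srebf1 had all HFD mice below all CD mice (11.1% of all genes below, 26.1% above, 37.2% in all). At 34 weeks this held for Mlxipl (0.986% of all genes below, 1.47% above, 2.46% in all).

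The diet difference itself was then compared between times, as an interaction term. Between 8 and 20 weeks none of the 10 genes was called by limma or edgeR, where limma called 4.49% of all genes (2.81% higher and 1.67% lower), and 4 of the 10 had an unadjusted p under 0.05 in limma and 5 in edgeR. Between 20 and 34 weeks 3 were called, all towards lower in HFD relative to CD, where limma called 10.5% of all genes (4.22% higher and 6.31% lower). These were Scd2 (-3.92 ± 0.78, adjusted p = 0.00198), Scd1 (-1.33 ± 0.37, adjusted p = 0.0192) and Elovl6 (-1.84 ± 0.62, adjusted p = 0.0484). The call of Elovl6 was lost in 5 of the alternative fits and without any 1 of 19 of the mice, and that of Scd1 was lost without the filter on low values (adjusted p = 0.614). Me1 was called as well with the macrophage covariate (-1.24, adjusted p = 0.0387). Between 8 and 34 weeks 6 were called, again all towards lower in HFD relative to CD, where limma called 28.8% of all genes (13.0% higher and 15.9% lower). The shifts were -4.96 ± 0.78 for Scd2, -3.37 ± 0.62 for Elovl6, -2.57 ± 0.67 for Fasn, -2.20 ± 0.37 for Scd1, -2.18 ± 0.57 for Acly and -2.08 ± 0.48 for Me1 (adjusted p from 4.51e-05 to 0.00485), and the call of Scd1 was lost without the filter (adjusted p = 0.272). Acaca, Acacb and Mlxipl, which were called lower on HFD already at 8 weeks, and Srebf1 were not among them. At 34 against 8 weeks Scd2, Elovl6, Acly and Me1 were called higher in CD mice (3.79, 2.34, 1.34 and 1.51). In HFD mice limma did not call these 4 (-1.18, -1.03, -0.85 and -0.57, adjusted p = 0.0807, 0.0537, 0.0886 and 0.172). Fasn was called higher in CD and lower in HFD mice, and Scd1 was called lower in HFD mice alone.

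Values were next compared over time within each diet. In CD mice none of the 10 genes was called at 20 against 8 weeks by limma or edgeR (2 with an unadjusted p under 0.05 in each), where limma called 3.58% of all genes (1.70% higher and 1.88% lower). Fasn was called higher there with the macrophage covariate (1.57, adjusted p = 0.0258), and Fasn and Elovl6 with array weights. At 34 against 8 weeks 5 rose and 2 fell, where 40.1% of all genes were called higher and 24.6% lower (64.7% in all). Scd2 rose by 3.79 ± 0.53, Elovl6 by 2.34 ± 0.42, Me1 by 1.51 ± 0.33, Acly by 1.34 ± 0.39 and Fasn by 1.19 ± 0.46 on the log2 scale (adjusted p from 4.66e-07 to 0.0235). The Fasn call was lost without any 1 of 6 mice (CD mice 3, 5 and 6 at 8 weeks and 4, 6 and 8 at 34 weeks), with values from 0.95 to 1.55 over all mice left out in turn. Acacb fell by 1.56 ± 0.38 (adjusted p = 0.000638) and Mlxipl fell by 0.93 ± 0.18 (adjusted p = 3.16e-05), although the Acacb fall was -0.53 and not called with the macrophage covariate (adjusted p = 0.268). That fit called Scd1 (1.30, adjusted p = 4.46e-05) and Acaca (0.94, adjusted p = 0.0225) higher, and relative to the adipocyte markers Scd1 (0.94, adjusted p = 6.49e-05) and Srebf1 (0.56, adjusted p = 0.00902) were called higher. In the fit reported these were 0.49 ± 0.25 for Scd1, -0.12 ± 0.35 for Acaca and 0.12 ± 0.20 for Srebf1, none of them called (adjusted p = 0.0846, 0.766 and 0.614), and Scd1 was called without CD mouse 5 of 34 weeks. Relative to the adipocyte markers the median of all genes tested was 0.58, and 6082 of 10343 were called higher. Srebf1 was thus near the median gene there. The 34 week CD mice in this comparison are the same animals that HFD was set against at 34 weeks, so both share their values.

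In HFD mice the genes called over time in the fit of all mice were lower. At 20 against 8 weeks Scd1 alone passed the test, where limma called 36.5% of all genes (21.2% higher and 15.3% lower), with a fall of 1.13 ± 0.27 on the log2 scale (adjusted p = 0.00177) that was -0.42 and not called with the macrophage covariate (adjusted p = 0.341). At 34 against 8 weeks 5 genes were lower, where 20.8% of all genes were called lower and 31.7% higher (52.5% in all). Acacb fell by 1.82 ± 0.41, Scd1 by 1.71 ± 0.27, Fasn by 1.37 ± 0.49, Acaca by 1.27 ± 0.37 and Mlxipl by 1.05 ± 0.19 (adjusted p from 7.53e-06 to 0.0192). Of these 5, Scd1 and Mlxipl were also called with the macrophage covariate, and Scd1 and Acacb relative to the adipocyte markers. Relative to these markers Srebf1 was called higher (0.67, adjusted p = 0.00316), where it was -0.01 ± 0.21 in the fit of all mice (adjusted p = 0.964). Relative to the same markers the median of all genes tested was 0.75, and 7499 of 10343 were called higher. Srebf1 was thus below the median gene there. The Fasn call was lost without HFD mouse 4 at 34 weeks (adjusted p = 0.0544). Both comparisons share the 8 week HFD mice.

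The 34 week CD mice differed widely among themselves. The highest mouse had 18.5 times the Fasn CPM of the lowest, 16.7 times the Elovl6, 13.7 times the Acly, 12.1 times the Scd2, 11.3 times the Acaca, 9.76 times the Me1, 6.58 times the Acacb and 3.597 times the Scd1, and 2.42 times the Srebf1 and 1.96 times the Mlxipl. Mouse 4 was the highest and mouse 5 the lowest for each of the 8 enzyme genes. Mouse 5 had the highest macrophage marker mean of its group, 9.55 on the log2(CPM + 1) scale, and the lowest adipocyte marker mean, 10.8. Mouse 4 had a macrophage mean of 6.80 and an adipocyte mean of 11.4, and the group ran from 6.00 to 9.55 and from 10.8 to 11.7. Mouse 3 had nearly the same marker means as mouse 4 (6.71 and 11.4), but 2670.1 CPM of Fasn against 18022. Mouse 2, with a macrophage mean of 8.62, had more Fasn than mouse 3 (5555 CPM). Mouse 6, with the lowest macrophage mean of the group, had 16009.9 CPM of Fasn. The part of the other cells in these values was not tested.

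To ask which genes moved with Fasn from mouse to mouse, the deviation of each of the 38 mice from its group mean was compared between Fasn and each of the other 9 genes. Pearson's r was 0.92 for Elovl6 (Spearman's rho 0.90), 0.90 for Me1 (0.88), 0.83 for Acly (0.80), 0.79 for Acaca (0.63), 0.72 for Scd1 (0.61) and 0.62 for Scd2 (0.63). All 6 passed a permutation test within groups with both measures, with adjusted p from 2.25e-05 to 0.000195 for r and from 3e-05 to 0.000675 for rho, where the smallest p that 100000 permutations can give is 1e-05. Acacb (r = 0.30, rho = 0.17), Srebf1 (r = 0.19, rho = 0.23) and Mlxipl (r = 0.09, rho = 0.04) did not pass in the permutation test (adjusted p = 0.169, 0.365 and 0.634 for r, and 0.386, 0.263 and 0.833 for rho). Without HFD mouse 4 of 20 weeks, Acacb passed for r in the permutation test (adjusted p = 0.0296). Between mice of the same group, Elovl6, Me1, Acly, Acaca, Scd1 and Scd2 thus varied with Fasn, and neither transcription factor mRNA was shown to do so. Only the other 9 genes were compared with Fasn, so the share of all genes that would pass is not known.

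The 2 mice farthest from the median of Fasn were 34 week CD mice 4 and 5. Without them r was 0.87 for Elovl6 and for Me1, 0.76 for Acly, 0.66 for Acaca, 0.58 for Scd1 and 0.48 for Scd2, and 0.02, 0.27 and -0.12 for Acacb, Srebf1 and Mlxipl. Over the 30 mice left when all 34 week CD mice were set aside, a comparison chosen after seeing the data, Elovl6 (r = 0.89), Me1 (0.87), Acly (0.66), Scd2 (0.56) and Scd1 (0.49) passed the permutation test for r. Acaca then had r = 0.41 (permutation test, adjusted p = 0.0605), and Scd1 had rho = 0.43 (permutation test, adjusted p = 0.0541). Relative to the adipocyte marker mean of each mouse, the 6 genes had r from 0.66 to 0.91 over all mice.

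**Figure D4:**
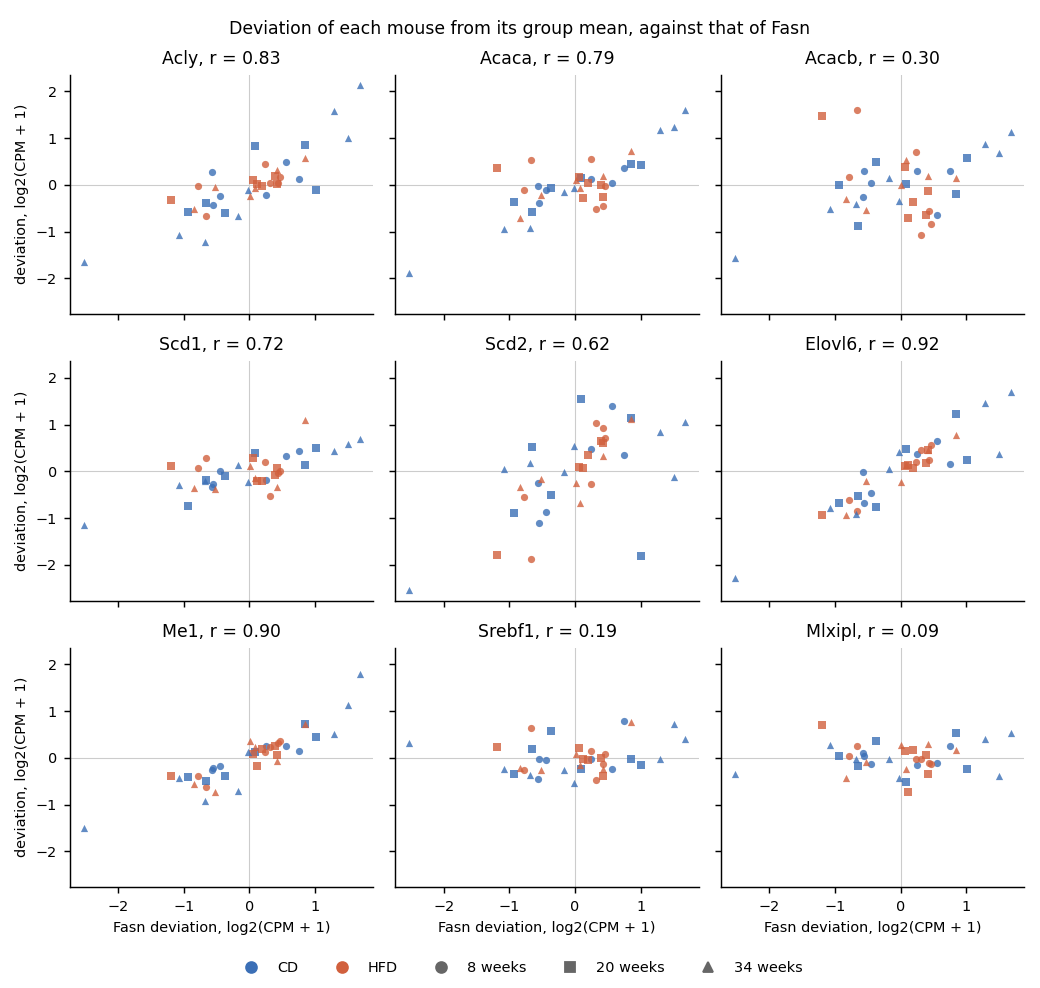
For each of the other 9 genes, the deviation of a mouse from its group mean (y axis) is plotted against that of Fasn (x axis), both in log2(CPM + 1), with colours for the diets and marker shapes for the weeks. Elovl6 and Me1 lie along a line (r = 0.92 and 0.90), Srebf1 and Mlxipl do not (r = 0.19 and 0.09), and the point farthest to the left in each panel is 34 week CD mouse 5.

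Per kilobase of exon, using the union of exons in GENCODE vM21, Scd1 was the most abundant of the 10 transcripts in every group, with 7474 ± 1707 CPM per kb in 8 week CD (SD, n = 6) and 3313 ± 1630.0 in 34 week HFD mice (SD, n = 6). In 8 week CD mice Fasn came next with 241 ± 99.1, before Me1 with 102 ± 17.1, Acly with 81.1 ± 19.9 and Srebf1 with 74.0 ± 25.05 CPM per kb, of which Acly and Srebf1 lay within 1 SD of each other. Acaca with 47.1 ± 8.02 and Acacb with 43.5 ± 10.5 also did not differ beyond their spread. Mlxipl with 20.6 ± 2.34, Scd2 with 13.1 ± 8.88 and Elovl6 with 2.74 ± 0.97 closed the order. Ordered per kb, Scd2 took place 9 in CD mice at 8 and 20 weeks place 5 in CD mice at 34 weeks (183 CPM per kb, against 54.3 in 34 week HFD mice) and place 4 in HFD mice at all 3 times. The exon union counts all annotated transcripts, so a gene whose adipocyte transcript is shorter is placed too low.

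The gene closest to the mean profile of Acly, Acaca and Fasn over the 6 group means, among all 10343 tested, was Thrsp, which encodes the lipogenic protein Spot 14. Its root mean square difference from that profile was 0.115 on the log2 scale, where the median over all genes tested was 0.863 and Fasn itself had 0.185. Thrsp had 970.4, 1138 and 1430.2 CPM in the median CD mouse and 784, 442 and 285 in the median HFD mouse at 8, 20 and 34 weeks. It was followed by Rbp4 (0.248), which encodes the retinol carrier secreted by liver and fat, Pard6g (0.279), a cell polarity gene, H2-Q10 (0.3004), a class I histocompatibility gene, and Tmem53 (0.316). Among the 10 genes, Scd2 was the most distant from the profile (1.74), before Acacb (0.822).

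Genes that feed carbon and NADPH into the pathway were mostly called lower at 34 weeks. Beside the counts of this and the next 3 lists, the shares of all genes tested are those given above, with 29.8%, 38.3% and 27.5% called higher and 15.1%, 18.7% and 15.7% called lower at 8, 20 and 34 weeks. Of 15 tested genes on that list, 3 were higher and 1 lower at 8 weeks, 2 higher and 7 lower at 20 weeks, and 9 lower at 34 weeks, with median log2 fold changes of 0.12, -0.36 and -0.50. At 8 weeks these counts were below the shares of all genes in both directions, and at 20 and 34 weeks the lower calls were above them. Acss2, which makes acetyl-CoA from acetate, had a median of 80.4 CPM in CD and 224 in HFD mice at 8 weeks and of 283 and 74.0 at 34 weeks. It rose by 1.23 ± 0.41 at 8 weeks (adjusted p = 0.0156) and fell by 2.30 ± 0.39 at 34 weeks (adjusted p = 5.41e-05). Aacs, the cytosolic acetoacetyl-CoA synthetase, was lower at all 3 times, with log2 fold changes of -0.93 ± 0.24, -1.22 ± 0.24 and -1.29 ± 0.22 (adjusted p = 0.00251, 6.54e-05 and 7.64e-05), and Pcx, pyruvate carboxylase, had -1.17 ± 0.26 at 20 weeks (adjusted p = 0.000279). With the macrophage covariate Aacs was not called at 8 or 20 weeks and Pcx was not called.

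Of the elongation and desaturation list, 7 of the 15 genes in the table were expressed enough to be tested. There 4 were higher and 1 lower at 8 weeks, 3 higher and 2 lower at 20 weeks, and 1 higher and 1 lower at 34 weeks, with median log2 fold changes of 0.51, 0.01 and -0.29. With 7 genes, 1 call in each direction at 34 weeks was not above the shares of all genes. Degs1, a sphingolipid desaturase, rose by 0.94 ± 0.17 at 8 weeks (adjusted p = 5.92e-05). Fads3, of the fatty acid desaturase cluster, rose by 0.91 ± 0.23 at 8 weeks and 0.96 ± 0.23 at 20 weeks (adjusted p = 0.00216 and 0.000743). Elovl1, which elongates very long chains, rose by 1.18 ± 0.15 at 20 weeks and 0.47 ± 0.14 at 34 weeks (adjusted p = 1.86e-07 and 0.00865), and Tecr, the last reductase of the elongation cycle, fell by 0.60 ± 0.14 at 34 weeks (adjusted p = 0.0015). Both 34 week calls were lost with the macrophage covariate, and that of Tecr also relative to the adipocyte markers.

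All 17 transcriptional regulators on the list were tested, and 2 were higher and 1 lower at 8 weeks, 6 higher and 3 lower at 20 weeks, and 5 higher and 5 lower at 34 weeks. Their median log2 fold changes were 0.01, 0.09 and 0.12, and the counts at 20 weeks were near the shares of all genes. Insig1, which holds SREBP in the endoplasmic reticulum and is itself an SREBP target, had 66.7 (median 113) to 146 CPM in CD and 151 (median 373) to 484 in HFD mice at 8 weeks. These groups did not overlap, and Insig1 rose by 1.54 ± 0.28 (adjusted p = 7.97e-05). Srebf2, which drives cholesterol synthesis, rose by 0.91 ± 0.13 at 20 weeks and 0.74 ± 0.12 at 34 weeks (adjusted p = 1.04e-06 and 5.23e-05), where Srebf1 was lower. Thrsp fell by 1.36 ± 0.35 at 20 weeks and 2.14 ± 0.33 at 34 weeks (adjusted p = 0.00131 and 1.93e-05), the first of which was not called with the macrophage covariate. Mid1ip1, a partner of Thrsp that activates the carboxylases, rose by 0.55 ± 0.21 at 8 weeks (adjusted p = 0.0365), a call lost in edgeR, under TMM and median-of-ratios scaling, with the macrophage covariate, without the filter and without any 1 of 9 of the mice.

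Of 10 tested genes for the control of the carboxylases and the disposal of malonyl-CoA, 1 was higher at each time and 4, 3 and 4 were lower at 8, 20 and 34 weeks, with median log2 fold changes of -0.09, -0.14 and -0.20. The higher gene was Cpt1a, the carnitine palmitoyltransferase that malonyl-CoA inhibits, whose median CPM was 62.7, 47.8 and 106 on CD, and 113, 178 and 218 on HFD. It rose by 0.80 ± 0.27, 2.11 ± 0.27 and 1.11 ± 0.25 (adjusted p = 0.0165, 1.86e-07 and 0.000891), and the first and last of these were not called with the macrophage covariate (adjusted p = 0.307 and 0.181). Prkab2, a regulatory subunit of AMP-activated protein kinase, fell by 0.63 ± 0.16 and 1.25 ± 0.16 at 8 and 20 weeks (adjusted p = 0.00243 and 2.44e-07), the first of which was not called relative to the adipocyte markers (adjusted p = 0.211). Mlycd, malonyl-CoA decarboxylase, fell by 0.56 ± 0.14 at 34 weeks (adjusted p = 0.00168), which was not called with the macrophage covariate, and its sign turned relative to the adipocyte markers (0.023, adjusted p = 0.866).

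**Figure D5:**
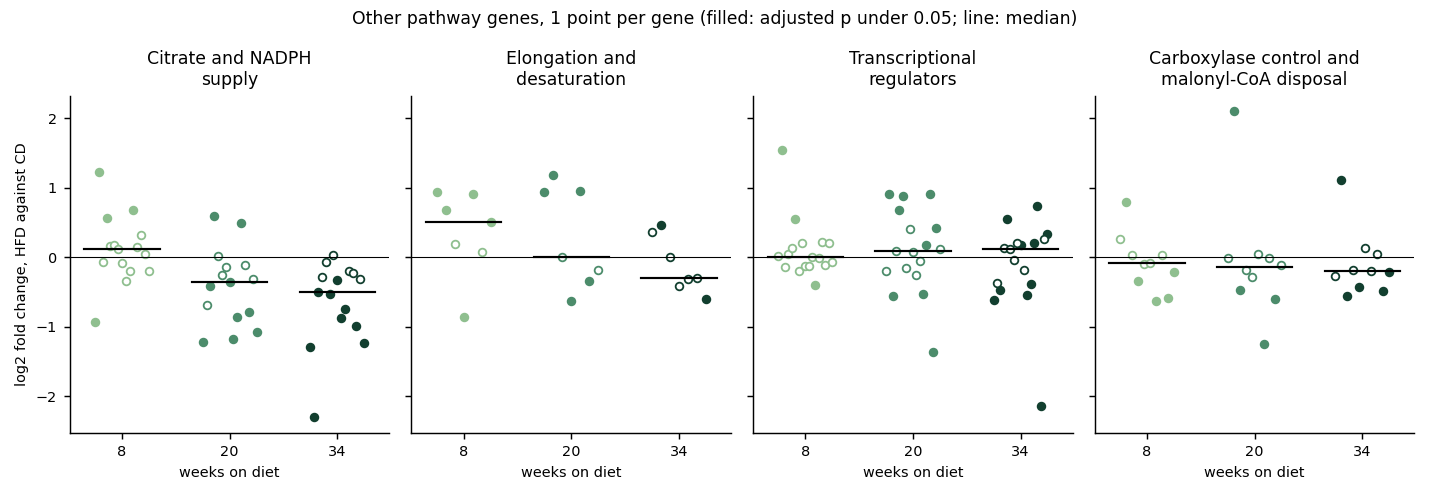
The log2 fold change of HFD against CD (y axis) is plotted at 8, 20 and 34 weeks (x axis) for the tested genes of 4 lists, with 1 point per gene, filled where the adjusted p was under 0.05, and the median as a black line. The median of the citrate and NADPH list goes from 0.12 to -0.50, and the lowest points at 34 weeks are Acss2 (-2.30) and Thrsp (-2.14).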

How the data were processed

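RNA-seq of perigonadal adipocytes from 38 male mice was analysed. Per the labels and methods, the authors aligned TruSeq stranded mRNA reads to mm10 (GRCm38) with STAR and counted reads unambiguously overlapping 1 gene with featureCounts (Subread 1.5.1 in the submitters' processing notes) on the exon union of GENCODE vM2. The deposited values are CPM, 1 column per mouse, and sum to 1000000 each, so that no TMM factor, which the methods name, is visible in them. All values were whole multiples of 1 read within 0.1 reads, and the whole reads so recovered were used for edgeR. Depth was 9275711 to 15480388 reads per mouse (median 12522298), and 1 read was 0.0646 to 0.108 CPM. At 8 weeks the depth of the diets did not overlap (10562845 to 12611013 in CD, 13201234 to 15480388 in HFD). The gene of this pathway with the fewest reads in any mouse had 81, and such depths cover counting error only.

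Values were taken as log2(CPM + 1), and limma 3.58.1 (R 4.3.3) was fitted to genes with a mean above 2.0, all 6 groups in 1 fit with a mean-variance trend and 32 residual degrees of freedom, two-sided, with Benjamini-Hochberg adjustment over 10343 genes and a threshold of 0.05. Alternatives were edgeR 4.0.16, other scalings, pseudocount 0.25, no filter, array weights, a block on mouse number, marker-based fits, each time alone and leaving out each mouse. Differences of isoenzyme log2 ratios were tested by two-sided exact permutation, and covariation with Fasn by 100000 permutations within groups. The fits and permutation tests were tested on simulated data. Gene positions and exon lengths are from GENCODE vM21 on GRCm38, and upstream sequences from RefSeq on GRCm38.p6.

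The 10 genes, the lists and the markers were chosen with earlier results of these data known. Named beside the 10 genes were, in each list and at each time, the 2 called genes with the largest change, and the 5 genes, predicted ones left out, with the smallest root mean square difference from the mean profile of Acly, Acaca and Fasn. Nothing in the labels says that mouse numbers pair animals, and p-values measure the spread between mice. Chi-square per degree of freedom between mice was at least 10.6 in all 103 same-group pairs, so each mouse counted as 1 sample.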

Additional observations from a re-analysis of the deposited data

Results flagged for a closer look

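In 7 of the 60 sets of mice (10 genes in 6 groups), 1 mouse stood apart from the others of its group by Dixon's test, which flags about 1 in 20 sets by chance. HFD mouse 4 at 20 weeks was the lowest for 3 genes, with 676 CPM of Fasn where the other mice had 1612 to 2071, 79.9 CPM of Scd2 (others 296 to 441) and 9.998 CPM of Elovl6 (others 21.1 to 27.8). The same mouse had the highest Acacb of its group (328 CPM), the highest adipocyte marker mean (11.3) and the lowest macrophage marker mean (8.16, on the log2(CPM + 1) scale). CD mouse 5 at 34 weeks had 144 CPM of Scd2 (others 768 to 1736). HFD mouse 6 at 34 weeks had 32064 CPM of Scd1 (others 11582 to 16344) and 492 CPM of Srebf1 (others 239 to 304). CD mouse 2 at 8 weeks had 694 CPM of Srebf1 (others 295 to 393).

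The diet difference itself differed between times for 6 genes by limma's interaction test. From 8 to 34 weeks it moved by -4.96 for Scd2, -3.37 for Elovl6, -2.57 for Fasn, -2.20 for Scd1, -2.18 for Acly and -2.08 for Me1 on the log2 scale, and from 20 to 34 weeks by -3.92 for Scd2, -1.84 for Elovl6 and -1.33 for Scd1. Scd2 was higher on HFD at 8 and 20 weeks and lower at 34 weeks, and its median in CD mice was 63.3, 59.9 and 905 CPM at these times.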

How the results depend on the processing

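The count of the 10 genes called moved by more than 1.5 times in 15 of the fits. Relative to the adipocyte markers it was 7 at 8 weeks (4 in the fit reported) and 3 for HFD mice at 34 against 8 weeks, 1 of them higher (5). Of all 10343 genes that fit called 4848 and 7727. With array weights it was 7 at 8 weeks, 7 for the diet difference at 20 against 8 weeks (0), 2 for CD mice at 20 against 8 weeks (0), and 8 and 9 for HFD mice at 20 and 34 against 8 weeks (1 and 5). Of all 10343 genes array weights called 7032, 4263, 1543, 6392 and 5975 in the same order, so 7 of 10 at 8 weeks was near the share of all genes. With the macrophage covariate it was 3 at 20 weeks (6), 5 at 34 weeks (10), 1 for CD mice at 20 against 8 weeks, and 0 and 2 for HFD mice at 20 and 34 against 8 weeks. Of all 10343 genes that covariate called 2918, 737, 793, 448 and 1518 in the same order. Without the filter it was 1 for the diet difference at 34 against 20 weeks (3) and 0 for HFD mice at 20 against 8 weeks, where edgeR called 2. Without the filter 1028 and 4233 of 21166 genes were called, and edgeR called 4048 of 10343. The cause of these moves in the count was not tested. Leaving out each mouse in turn gave 1 to 2 for HFD mice at 20 against 8 weeks and 0 to 1 for the diet difference at 20 against 8 weeks.

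Signs turned with a call for Srebf1 in HFD mice at 34 against 8 weeks (0.67 relative to the adipocyte markers) and for Acaca in CD mice at 34 against 8 weeks (0.94 with the macrophage covariate). The median of all genes tested was 0.75 in the first of these fits, so that Srebf1 was below the median gene. Without a call, this Srebf1 value was 0.0076 with array weights, 0.38 with the macrophage covariate and -0.17 to 0.11 with mice left out, this Acaca value was 0.32 relative to the adipocyte markers, 0.22 in edgeR and -0.35 to 0.15 with mice left out, and Srebf1 in CD mice at 34 against 8 weeks was -0.078 with array weights. The other turned signs also came without a call. Acly at 8 weeks was -0.045 with TMM, -0.034 with median-of-ratios scaling and -0.046 in edgeR, and -0.022 to 0.20 with mice left out. At 20 weeks Scd1, Elovl6 and Me1 were 0.28, 0.031 and 0.40 relative to the adipocyte markers and 0.43, 0.092 and 0.56 with the macrophage covariate, and Mlycd at 34 weeks was 0.023 relative to the adipocyte markers. Without the 34 week CD mice, r with Fasn was -0.25 for Acacb and -0.10 for Mlxipl. With single mice left out it was -0.013 to 0.23 for Mlxipl, and the Scd2 to Scd1 ratio at 34 weeks differed by -0.072 to 0.23.

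Mouse numbers did not pair the mice (mean correlation of deviations -0.04 over 90 pairs of the same number, 0.01 over 510 others). With number as a block, 0 isoenzyme ratios were called instead of 2, at unchanged differences of 2.88 and 2.72, since 6 pairs allow no exact permutation p under 0.03125 (adjusted p = 0.0938 for both), so that this loss follows from the design, and the calls of Elovl6 for 34 against 20 weeks and of Fasn for CD mice at 34 against 8 weeks were lost. TMM moved the median of all genes by -0.11, -0.19 and -0.09 at the 3 times, and the share called higher among all calls from 66.3% to 49.9%, 67.1% to 46.4% and 63.6% to 50.4%. Relative to the adipocyte markers that share was 92.7%, 96.8% and 98.1%. TMM also moved it for the diet difference at 20 against 8 weeks (62.7% to 49.1%) and at 34 against 20 weeks (40.0% to 62.2%). Over all genes, the macrophage covariate called 2918 at 20 weeks (5894 in the fit reported), 737 at 34 weeks (4468), 793 for CD mice at 20 against 8 weeks (370), and 448 and 1518 for HFD mice at 20 and 34 against 8 weeks (3772 and 5432). Array weights called 7032 at 8 weeks (4648), 4263 and 3407 for the diet difference at 20 against 8 and 34 against 20 weeks (464 and 1089), and 1543 and 6392 for CD and HFD mice at 20 against 8 weeks. Relative to the adipocyte markers 7939 were called at 34 weeks, 10, 215 and 831 for the diet difference at 20 against 8, 34 against 20 and 34 against 8 weeks (2982), and 104 for CD mice at 20 against 8 weeks. The 34 week mice alone gave 2457.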
